A study of Mus musculus with 3 samples.

Results

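Nonclassical patrolling monocytes of the mouse liver were picked out of single-cell counts as 278 cells among the 42971 cells that passed the filter, out of 52335 cells in all. They came from 2 libraries, with 104 cells in the NCD library and 174 cells in the HFHC pool. A cell was kept with 200 to 4000 genes and at most 25% of its unique molecular identifiers (UMIs, counts of single captured RNA molecules) from mitochondrial genes. A kept cell was a member when it held at least 2 UMIs of Ace, Treml4, Eno3 and Spn together, at least 1 of them from Ace or Treml4, and at least 1 UMI of Cx3cr1 or Csf1r. It could hold at most 1 UMI of the classical monocyte genes Chil3, F13a1 and Vcan, at most 2 of the Kupffer cell genes Clec4f and Vsig4, and at most 1 of the neutrophil genes Retnlg and Cxcr2. It could hold no UMI of Cd3e, Cd79a, Siglech, Ptprb or Ncr1. The members were thus chosen by measured values, and the levels of these genes are given as a description.

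The cells were non-parenchymal cells of mouse liver, captured with the BD Rhapsody system and sequenced as whole transcriptomes. The NCD library was taken to hold cells of wild-type (WT) C57BL/6 J mice on a normal chow diet (NCD). Its title in the labels reads MCD, letters that elsewhere stand for a methionine-choline deficient diet, and it was read as NCD because strict forms of the filter left exactly the number of cells that the study kept from NCD livers. The HFHC pool holds cells of WT mice and of Chi3l1-/- mice, which lack the chitinase-like protein Chi3l1 in every cell, fed for 16 weeks on a diet rich in fat and cholesterol (HFHC). No genotype was assigned here to a cell of the pool, so that WT and Chi3l1-/- cells are not separated below. The filter also kept more cells of the pool than the study did from both genotypes. Some members and other kept cells may thus be cells that the study left out. The number of animals behind each library is not given in the sources used here. Each diet has 1 library, so differences between the diets could not be tested, no p-value is given, and diet, genotype, capture and library cannot be told apart.

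Nonclassical monocytes arise from classical, Ly6C-high monocytes of the blood under the transcription factors Nr4a1 and Cebpb, and depend on Csf1r signals to survive. They crawl along the inner wall of small vessels with the integrin LFA-1, of which Itgal encodes the alpha chain, and clear damaged endothelial cells, immune complexes and debris. They carry little Ccr2, the chemokine receptor with which classical monocytes enter inflamed tissue.

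The limits of the rule lay close to some cells. Exactly 2 marker UMIs, just inside the limit, were held by 17 NCD and 40 HFHC members, and 4 or more by 77 and 111. Exactly 1 marker UMI, just outside it, was held by 38 NCD and 72 HFHC cells that met the rest of the rule. On the classical side, 11 NCD and 21 HFHC members held the 1 UMI allowed, and 6 and 17 cells outside the rule held 2. The limit on Clec4f and Vsig4 removed more cells than any later part of the rule, from 881 to 136 in the NCD library and from 437 to 219 in the HFHC pool.

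Depth differed between the libraries. NCD members held a median of 2533.5 UMIs (911 to 9055) and HFHC members a median of 6473 (1343 to 16291), so that the same number of marker UMIs was a smaller share of an HFHC cell. Median mitochondrial shares were 6.36% and 6.13%. Scrublet called 2 of 104 NCD and 8 of 174 HFHC members doublets, and they were left in. Of all kept cells it called 1897 of 23346 and 382 of 19625. Called doublets were thus a larger share of members than of kept cells in the HFHC pool only. Although 756 cell indices occurred in both libraries, no index belonged to members of both. The indices of 1 NCD and 6 HFHC members also occurred in the other library.

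The marker genes were first set against other cells. Ace, which encodes angiotensin-converting enzyme, was found in 90 of 104 NCD members at 1566 counts per 1000000 UMIs (CPM, over the summed cells) and in 119 of 174 HFHC members at 459.7 CPM. Spn, which encodes the sialoglycoprotein CD43, was at 599 and 161 CPM, and Eno3, a muscle-type enolase, at 158 and 81.5 CPM. Treml4, an immune receptor of the TREM family, was at 247 and 253 CPM. Kupffer-like cells (at least 5 UMIs of Clec4f, Vsig4 and Timd4) had Ace at 3.77 and 4.61 CPM, Spn at 7.43 and 3.84 CPM and Eno3 at 8.01 and 4.10 CPM, but Treml4 at 153 and 223 CPM. Members were chosen on these genes and had to hold them, so the check shows only that Treml4 was carried by Kupffer-like cells as well, while Ace, Spn and Eno3 were near 0 there.

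A part of the members also carried genes of macrophages or dendritic cells. C1qa, C1qb and C1qc, which encode the chains of complement C1q and mark Kupffer cells and other macrophages, had 2 or more UMIs together in 13 of 104 NCD members (12.5%, exact binomial 95% interval 6.83 to 20.4) and in 54 of 174 HFHC members (31.0%, 24.3 to 38.5). Xcr1 or Clec9a, which mark cross-presenting dendritic cells, had a UMI in 7 NCD and 36 HFHC members. Classical monocytes carried C1q too, with 2 or more UMIs in 16 of 133 NCD and 16 of 167 HFHC cells (9.58%), and B cells in 2.37% and 3.85%. At 1000 UMIs per cell these shares were 8.74% and 22.4% in members, 4.58% and 3.59% in classical monocytes and 1.37% and 0.498% in B cells. The C1q or dendritic UMIs (of Xcr1, Clec9a, Flt3 or Cd209a) that keep a cell out of the C1q-low members below were carried by 23.1% of NCD members and 33.1% of NCD classical monocytes, so they were not particular to members there, and by 46.6% and 34.7% in the HFHC pool. Members with Treml4 and without Ace, 14 NCD and 55 HFHC cells, had C1qc at 1277 and 1902 CPM, against 78.8 and 205 CPM in members with Ace. Summed Kupffer cell markers were at 1171 and 3763 CPM in all members.

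Results below are therefore also given for members with at most 1 C1q UMI and no UMI of Xcr1, Clec9a, Flt3 or Cd209a, called C1q-low members, a limit set after the data were seen. They numbered 80 of 104 in the NCD library and 93 of 174 in the HFHC pool. Ace was at 2009 and 973 CPM and C1qc at 20.1 and 12.5 CPM in them, and the summed Kupffer cell markers were at 247 and 149.7 CPM. The plot of Ace against C1q shows both kinds of cell in each library.

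**Figure D1:**
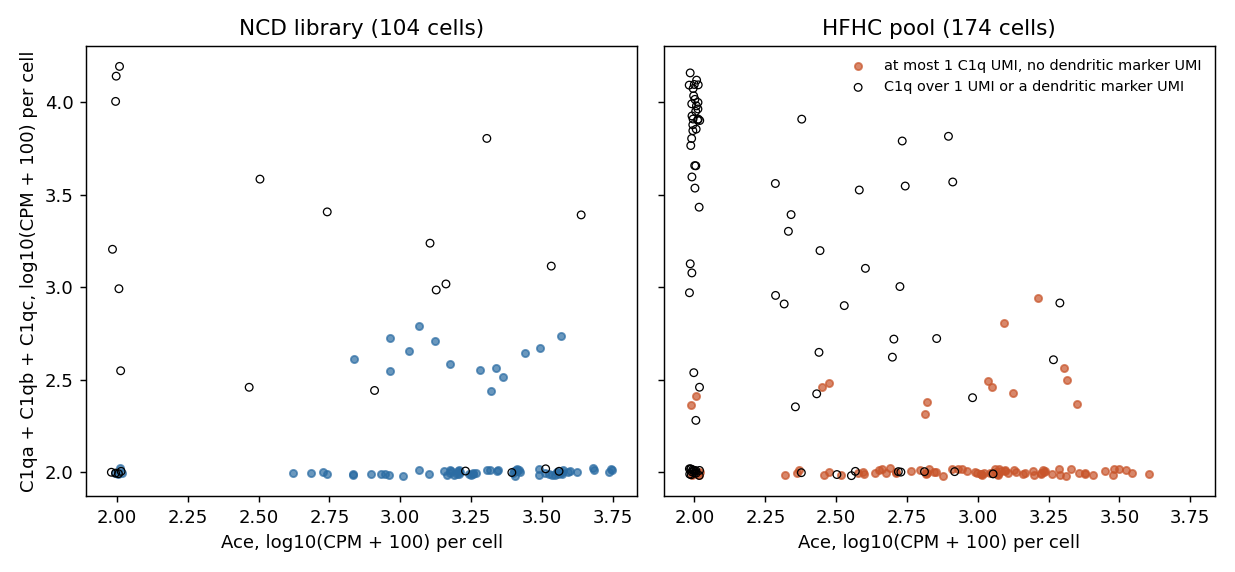
Ace (x axis) against the sum of C1qa, C1qb and C1qc (y axis) in each member, both as log10 of CPM plus 100, for the NCD library (104 cells) and the HFHC pool (174 cells). Filled points are C1q-low members (80 and 93), open points the other members, and a jitter separates cells at the same value. Open points without Ace at high C1q are more numerous in the HFHC pool, where 54 members have 2 or more C1q UMIs.

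With all UMIs, members were a larger share of the HFHC cells, but the order of the libraries depended on depth and on the marker limit. They were 0.445% of kept cells in the NCD library (0.364 to 0.540) and 0.887% in the HFHC pool (0.760 to 1.03). The shares of C1q-low members were 0.343% and 0.474%. After every cell was thinned to 1000 UMIs and the rule applied again, 80 of 14402 cells (0.555%, 0.441 to 0.691) and 79 of 12370 cells (0.639%, 0.506 to 0.795) were members, with overlapping intervals. The order was the same at 2000 UMIs (0.915% and 1.37%), which left out 31 NCD and 4 HFHC members, and turned at 500 UMIs (0.243% and 0.183%). At 1000 UMIs it also turned with at least 2 different markers (0.430% and 0.396%) or at least 3 marker UMIs (0.410% and 0.372%). Thinning to 1000 UMIs left out 8944 NCD and 7255 HFHC cells under 1000 UMIs, among them 1 NCD member. These intervals, and all others here, cover counting error only.

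Classical monocytes, taken by a mirror rule (at least 1 Ly6c2 UMI, at least 2 of Chil3, F13a1 and Vcan, none of Ace or Treml4), gave a second denominator. Nonclassical cells were 43.9% of 237 monocytes of both classes in the NCD library (37.5 to 50.5) and 51.0% of 341 in the HFHC pool (45.6 to 56.4). After thinning the order turned, to 53.3% of 150 (45.0 to 61.5) and 47.6% of 166 (39.8 to 55.5). These intervals describe the cells of each library and give no test between diets. The members counted here include cells past the limit on C1q and dendritic UMIs, 23.1% of NCD and 46.6% of HFHC members. C1q-low members were 80 beside 133 classical monocytes in the NCD library and 93 beside 167 in the HFHC pool. The order thus turned with them as well, although the limit was not set on the classical monocytes.

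**Figure D2:**
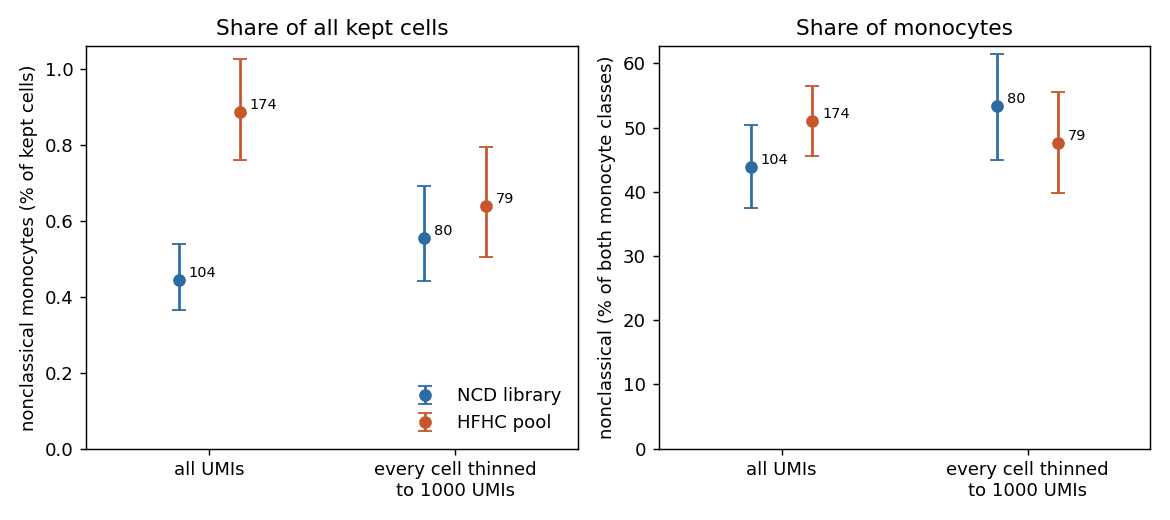
Share of nonclassical monocytes among all kept cells (left) and among classical and nonclassical monocytes together (right), in percent, with all UMIs and after thinning every cell to 1000 UMIs. Points are the 2 libraries, bars exact binomial 95% intervals, and the figures beside the points numbers of members. The gap on the left (0.445% against 0.887%) narrows after thinning (0.555% against 0.639%), and the intervals on the right overlap in both settings.

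Within each library, members were then set against the 133 and 167 classical monocytes of the same capture. Both classes were chosen by measured values, so the ratios describe the classes and no test was made. Of the 28 listed nonclassical genes that the rule did not use, 24 had at least 50 UMIs over both classes of the NCD library, and 19 of them were 2-fold or more higher in the nonclassical cells, where 4.66% of 2744 genes were. In the HFHC pool it was 17 of 27, where 4.72% of 5804 genes were. The median log2 ratio of the list was 2.45 in the NCD library, against 1.34 in the HFHC pool. In C1q-low members it was 2.62 and 1.98, with 20 genes past 2-fold in each library (6.01% and 3.64% of genes).

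Receptors and other surface proteins were among the genes with the highest ratios. Cd300e, an activating receptor of myeloid cells, had 78 UMIs in NCD and 103 in HFHC members and 0 UMIs in the classical monocytes of both libraries, at least 41.7-fold and 29.1-fold higher against a floor of 3 UMIs over the group. Cd36, a scavenger receptor for oxidized lipids, was at 612 against 24.6 CPM in the NCD library (log2 ratio 4.53, 95% interval 3.80 to 5.61) and at 310.2 against 25.4 CPM in the HFHC pool (3.56, 3.04 to 4.23). S1pr5, a sphingosine 1-phosphate receptor with which these monocytes leave the bone marrow, had log2 ratios of 4.36 and 3.27. Fcgr4, an Fc receptor for immune complexes, had 3.86 and 2.10, Itgax, an integrin chain, 3.01 and 2.86, and Pglyrp1, which binds bacterial peptidoglycan, 4.34 and 3.35. Kupffer-like cells shared some of these genes, with Cd300e at 122 and 66.3 CPM (members were at 257 and 82.3 CPM), Fcgr4 at 672 and 680.2 CPM and Cd36 at 351 and 539 CPM, but held 19 S1pr5 UMIs in 3265 NCD and 3 in 433 HFHC cells.

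The 20 genes with the highest ratio in both libraries also held Slc12a2, Cd9, Ear2, Cyfip2, Hfe, Cd81, Pltp, Adgre4, Cd300ld, Wdfy4, Tcf7l2 and Tgm2, with log2 ratios from 1.76 (Tgm2, NCD library) to 6.35 (Slc12a2, NCD library, from 101 and 1 UMIs, 95% interval 4.83 to 12.66). C1qb and C1qc were the other 2, and both were negative in C1q-low members. C1qc was at 2.16 and 3.50 in all members and at -1.55 and -2.56 in C1q-low members, where the limit on C1q acts on it directly.

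The classical programme was low, as the rule partly required. Of 11 classical genes tested, among them the rule's Chil3, F13a1 and Vcan, 10 were 2-fold or more lower in each library (5.76% and 3.53% of genes were). In C1q-low members these were 8 and 9 (of 11 and 11 tested, with 8.08% and 4.06% of genes). The selection itself set the classes apart by Chil3, F13a1, Vcan and Ly6c2, so these counts are a description and no support. Ly6c2, the surface protein that defines classical monocytes and by which only the classical cells were chosen, was at 267 against 2731 CPM in the NCD library and at 237 against 2127 CPM in the HFHC pool (log2 ratios -3.34 and -3.16). Fn1, fibronectin, was at -4.40 and -4.89. The 10 lowest ratios included those of Mmp8, Fn1, Gas7, Ly6c2, Cxcl10, Thbs1, Cd177, Slpi and AI839979. The interferon-stimulated genes had a negative ratio in 21 of 21 genes in the NCD library and 24 of 24 in the HFHC pool. Their medians were -0.86 and -0.76, and 9 and 8 of them were past 2-fold. Cxcl10, a chemokine for activated T cells, was at -3.27 and -2.63.

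**Figure D3:**
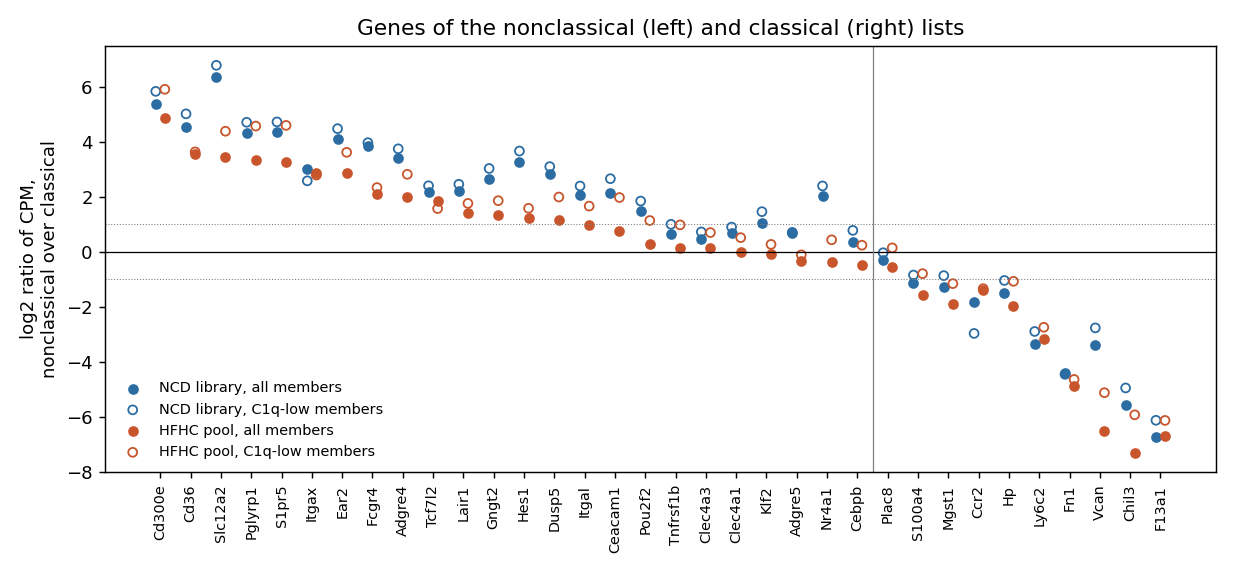
Log2 ratio of CPM of nonclassical over classical monocytes of the same library, for listed nonclassical genes (left of the vertical line) and classical genes (right, the rule's Chil3, F13a1 and Vcan included) reported here with at least 50 UMIs in both libraries. Filled points are all members, open points C1q-low members, and dotted lines mark 2-fold. Cd300e, and Vcan in the NCD library, have no UMI in 1 class and are drawn at their bound. The median of the nonclassical list is 2.45 in the NCD library, against 1.34 in the HFHC pool.

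Between the libraries, the nonclassical programme was lower in HFHC members. All 28 of its genes were tested, 23 had a negative log2 ratio (HFHC over NCD, as in all ratios between libraries below), and 10 were 2-fold or more lower and 0 higher (5.51% of 4685 genes tested were lower and 7.94% higher). The median was -0.77, against -0.02 over all genes. In C1q-low members it was -0.55, with 8 genes past 2-fold (4.22% of 2440 genes were). The same list had a median of 0.35 in classical monocytes, with 1 of 20 genes past 2-fold lower and 5 higher (2.96% and 5.25% of 4533 genes were). It was -0.56 in B cells, with 5 of 22 lower and 3 higher (4.10% and 5.75% of all genes were), and 0.52 in T cells, with 0 of 25 lower and 3 higher (2.81% and 7.87%).

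Depth and the choice of members moved with this count. When members were chosen on thinned counts, the median was -0.29 and 1 of 28 genes was past 2-fold (2.81% of 2138 genes were). At 1000 UMIs per cell, the number of listed nonclassical genes with a UMI in a cell had a median of 10 in NCD and 6 in HFHC members, 11 and 8 in C1q-low members, and 4 in classical monocytes of both libraries. The part of depth, C1q and dendritic UMIs in the lower ratios was not tested.

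Cebpb, a transcription factor these monocytes need to form, was at 2076 and 478 CPM (log2 ratio -2.12, 95% interval -2.28 to -1.95) and was found in 92 of 104 and 132 of 174 cells. It was also past 2-fold in C1q-low members (-1.81), in members with an Ace UMI and in members chosen on thinned counts (-1.54). Other cells had it lower too, at -1.27 in classical monocytes, -1.25 in B cells and -0.77 in T cells. Pou2f2, which encodes the factor Oct2, was at 1273 and 411 CPM (-1.63), at -1.15 in C1q-low members and at -0.45 in classical monocytes. Mef2c, a factor of myeloid and lymphoid cells, was at 224 and 80.7 CPM (-1.48, and -1.02 in C1q-low members). Hes1, a target of Notch signals, which drive the step from classical to nonclassical monocytes, was at 217 and 111 CPM (-0.98, and -1.02), and was higher in nonclassical than in classical cells of both libraries (3.29 and 1.25). Of the 22 transcription factors tested, 4 were past 2-fold lower and 2 past 2-fold higher (5.51% and 7.94% of all genes were), with a median of -0.42 in all and -0.22 in C1q-low members. The share of higher ones was near that of all genes, and they were Maf, a macrophage factor, at 184 and 397 CPM (1.09, and 0.96), and Nr1h3, the oxysterol receptor LXR-alpha, at 39.5 and 90.3 CPM (1.09).

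Nr4a1, the factor on which nonclassical monocytes depend most, was at 954 and 604 CPM in members (-0.66) and at 1229 and 1054 CPM in C1q-low members (-0.22). In classical monocytes it was at 232 and 777 CPM (1.73), and B cells and T cells had ratios of 3.06 and 2.39. Nonclassical over classical cells, its log2 ratio was 2.03 in the NCD library, against -0.36 in the HFHC pool, and 2.40 and 0.44 in C1q-low members. The level of classical monocytes thus stood close to that of nonclassical ones in the HFHC pool only.

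Adhesion genes had the same direction. Of 19 genes tested, 15 had a negative ratio and 4 were past 2-fold lower (5.51% of all genes were), with a median of -0.43. In C1q-low members the median was -0.26 and 1 of 19 was past 2-fold lower, close to the 4.22% of all genes. The chains of the LFA-1 integrin were lower in HFHC members, with Itgal at 1882 and 711 CPM (-1.41, and -1.02 in C1q-low members) and Itgb2 at 1639 and 748 CPM (-1.13). Other cells had Itgal lower in the HFHC pool too, at 807 and 520 CPM in Kupffer-like cells. It was at 445 and 365 CPM in classical monocytes and at 174 and 117.5 CPM in B cells. After thinning, an Itgal UMI was found in 60.9% of NCD and 38.1% of HFHC T cells. The lower Itgal was thus not particular to members. Itgam, the alpha chain of the Mac-1 integrin, was at 497 and 219 CPM (-1.19), and Selplg, which encodes the adhesion ligand PSGL-1, at 569 and 277 CPM (-1.04). In classical monocytes the median was 0.12 and 0 of 20 genes were past 2-fold lower. In members chosen on thinned counts it was -0.03, with 0 genes past 2-fold.

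Genes of antigen presentation on major histocompatibility complex (MHC) class II were higher in HFHC members, with a larger ratio in C1q-low members. Summed over the list they were at 22423 CPM in NCD and 35969 CPM in HFHC members. In C1q-low members they were at 7250 and 22473 CPM. The larger ratio thus went with a larger fall of the NCD level. The limit is a fixed number of UMIs, while C1q-low members had medians of 2338 and 4973 UMIs. Class II genes share a regulatory module in their promoters. Its Y box is bound by the factor NF-Y, while the coactivator Ciita assembles on the whole. The exact letters CTGATTGG, searched on both strands, were found in 2 of the 7 promoters of the 6 listed genes that had an entry in RefSeq (of 11 listed), and in 4.1% of 32851 promoters of this length (250 bases before to 50 after the start). They were found in 1 of 26 promoters of 22 nonclassical genes (Cd36). The letters AAAGGTCA of the NR4A response element were found in 1 of the 7 class II promoters (H2-Eb1), in 0 of the 26 nonclassical ones and in 1.51% of all. The 2 class II promoters with the Y box letters, those of H2-Aa and H2-Eb1, are shown 5′ to 3′. They are from RefSeq on GRCm38.p6, chr17:34287774-34288073 on the minus strand for H2-Aa and chr17:34305617-34305916 on the plus strand for H2-Eb1, with the Y box in capitals, 43 and 54 bases before the start. A match is a description of the sequence and was not tested as a site.
H2-Aa: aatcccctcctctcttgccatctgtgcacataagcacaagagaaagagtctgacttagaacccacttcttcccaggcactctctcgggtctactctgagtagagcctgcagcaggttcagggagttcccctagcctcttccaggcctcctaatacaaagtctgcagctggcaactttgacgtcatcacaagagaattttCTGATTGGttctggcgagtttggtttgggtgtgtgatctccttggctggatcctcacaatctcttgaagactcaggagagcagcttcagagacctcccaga
H2-Eb1: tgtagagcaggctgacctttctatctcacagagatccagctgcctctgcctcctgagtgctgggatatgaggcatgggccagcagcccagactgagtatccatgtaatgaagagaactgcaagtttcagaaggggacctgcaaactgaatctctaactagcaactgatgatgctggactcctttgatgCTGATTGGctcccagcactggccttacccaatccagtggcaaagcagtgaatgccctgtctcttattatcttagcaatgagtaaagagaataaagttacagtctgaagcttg

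In all members, 3 of 10 class II genes tested were 2-fold or more higher in the HFHC pool (7.94% of all genes were) and the median log2 ratio was 0.68. In C1q-low members 7 of 8 were (6.64% of all genes were), with a median of 1.74. It was 1.06 in members with an Ace UMI and 1.43 in members chosen on thinned counts, where 7 of 7 were past 2-fold (5.99% of all genes were). The list stood at 0.26 in classical monocytes, with 0 of 9 past 2-fold (5.25% of all genes were), and at -0.39 and -0.29 in B cells and T cells. A gene high in HFHC members enters such counts more readily. The counts and medians are thus a description and no support for a direction.

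H2-Aa, which encodes the alpha chain of the I-A molecule, was at 1324 and 4290.0 CPM in NCD and HFHC C1q-low members (log2 ratio 1.69, 95% interval 1.51 to 1.89). H2-Eb1, the beta chain of I-E, was at 599 and 2629 CPM (2.12, 1.86 to 2.42), and Cd74, the invariant chain that guides class II molecules through the cell, at 2859.8 and 9844 CPM (1.78, 1.66 to 1.91). H2-DMa, a chain of the peptide-loading molecule, was at 60.4 and 345 CPM (2.41, 1.67 to 3.50). These intervals count UMIs as separate draws, but the UMIs were gathered in part of the cells. Of H2-Aa, 237 UMIs lay in 10 NCD cells and 26 in the other 70. In the HFHC pool 2013 lay in 41 cells and 51 in the other 52. The intervals are thus too narrow for the spread between cells and give no test between diets. Ciita itself was at 80.6 and 160.0 CPM (0.92, 0.20 to 1.87), and Cd86, a costimulatory ligand for T cells, had 3 and 48 UMIs (2.34, 1.09 to 5.05). Relative to classical monocytes of the same library, the class II list was at -0.80 in NCD and 0.65 in HFHC C1q-low members. In all members it was at 0.76 and 1.18, so its sign in the NCD library turned with the limit on C1q and dendritic UMIs, which was not set on the classical monocytes.

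**Figure D4:**
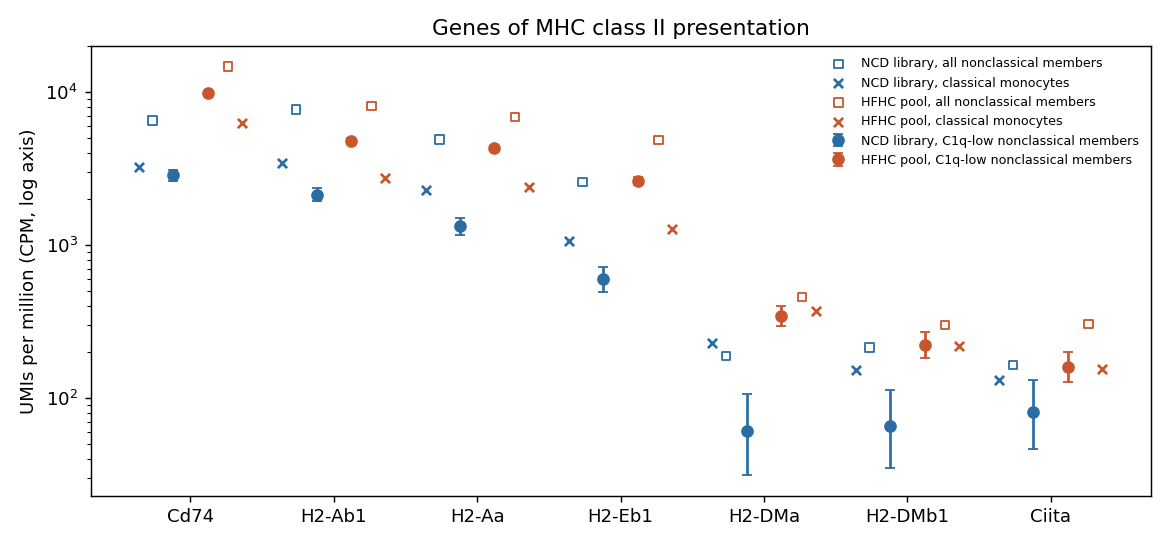
Levels of 7 genes of MHC class II presentation in CPM (log axis). Filled circles with exact Poisson 95% intervals are C1q-low members, open squares all members and crosses classical monocytes, in blue for the NCD library and orange for the HFHC pool. In C1q-low members H2-Aa is at 1324 and 4290.0 CPM and Cd74 at 2859.8 and 9844 CPM, while the classical monocytes of the HFHC pool have H2-Aa at 2392 CPM.

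Cell by cell, class II was high in some members and low or absent in others. A cell was called class II-high with at least 5000 CPM of H2-Aa, H2-Ab1 and H2-Eb1 together, a limit set after the data were seen that marks a range of one score and not a cell type. Of C1q-low members, 10 of 80 in the NCD library (12.5%, 6.16 to 21.8) and 41 of 93 in the HFHC pool (44.1%, 33.8 to 54.8) were class II-high. The intervals describe the cells of each library and give no test between diets. At 1000 UMIs per cell the shares were 12.7% and 45.2%, against 21.4% and 30.5% of classical monocytes and 0.861% and 0.620% of T cells, which should lack these genes. The classical monocytes were not chosen for low C1q and dendritic UMIs, and 33.1% and 34.7% of them were past that limit. No UMI of the 3 genes was found in 47 NCD and 18 HFHC C1q-low members, and 7 and 12 cells lay within 2-fold of the limit.

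Class II-high members held less of several nonclassical genes. In the HFHC pool, class II-high cells had Fcgr4 at 106 CPM against 614 CPM in the other C1q-low members, Cd36 at 79.9 against 623 CPM, Cd300e at 38.0 against 330.0 CPM and Nr4a1 at 666 against 1522 CPM. The 10 class II-high cells of the NCD library had the same order for these genes, with Nr4a1 at 669 against 1346 CPM. Itgax was higher in class II-high cells, at 814 against 225 CPM and at 635 against 238 CPM. Ace, a gene of the rule, was at 1308 against 2156 CPM and at 757 against 1233 CPM, lower in class II-high cells of both libraries. Ly6c2 was at 1395 against 146 CPM in the NCD library and at like levels of 319 and 312 CPM in the HFHC pool. At unequal depth (median 3608 against 2230.0 UMIs in NCD and 6251 against 3955 in HFHC cells), it was found in 40% and 58.5% of class II-high cells, against 17.1% and 23.1% of the other C1q-low members.

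Among the other C1q-low members, the nonclassical list had a median of -0.22 between the libraries, with 1 of 25 genes lower and 1 higher by 2-fold (2.92% and 6.49% of all genes were). In class II-high cells it was -0.37, with 5 of 15 lower and 0 higher (7.39% and 10.8% of all genes were). Summed B cell markers were at 146 and 145 CPM in C1q-low members, and summed dendritic markers at 30.2 and 12.5 CPM. The selection held both sums low, since members hold no Cd79a UMI and C1q-low members none of Xcr1, Clec9a, Flt3 or Cd209a. They are therefore no measure of such cells among the members. The part of remaining dendritic or classical cells in the class II-high cells was not tested.

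Ccr2 was at 262 and 1203 CPM in NCD and HFHC C1q-low members (log2 ratio 2.18, 95% interval 1.79 to 2.64), at 582 and 1178 CPM in all members (1.01) and at 2082 and 3045 CPM in classical monocytes (0.55). At 1000 UMIs per cell it had a UMI in 17.7% of NCD and 39.8% of HFHC C1q-low members, and in 1.60% and 2.12% of B cells. In the HFHC pool it was at 1407 CPM in class II-high and 958 CPM in the other C1q-low members, and in the NCD library at 319.8 and 249.7 CPM. Both kinds of cell thus held more in the HFHC pool. Of the other chemoattractant receptors, Cx3cr1, the fractalkine receptor that these monocytes need to survive and a gene of the rule, was at 747 and 499 CPM (-0.59), with -0.34 in C1q-low members. S1pr5 was at 207 and 53.6 CPM (-1.95, and -0.99 in C1q-low members). Cxcr4, a retention receptor of the bone marrow, was at 385 and 333 CPM (-0.22), and C5ar1, a receptor for complement fragment C5a, at 112 and 64.8 CPM (-0.81). Fpr1, a receptor for formylated bacterial peptides, had 1 and 53 UMIs (2.71, 95% interval 1.15 to 9.02). In all, 10 of these receptors were tested, with 2 past 2-fold higher and 1 lower (7.94% and 5.51% of all genes were). Of the higher ones, Fpr1 entered through HFHC members only, which held more UMIs in all. A gene high in HFHC members thus enters more readily, and the count is a description and no support for a direction.

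Among cytokines and inflammatory mediators, of 16 genes tested, 10 were 2-fold or more higher and 0 lower (7.94% and 5.51% of all genes were), with a median of 1.34. Genes entered with 50 UMIs over both groups, and HFHC members held 1250827 UMIs in all against 303929 of NCD members, so a gene high in HFHC members alone enters more readily, and Ccl4 and Ptgs2 entered through that group only. The count and median are a description and no support for a direction. In C1q-low members 8 of 13 were higher (6.64% of all genes were), with a median of 1.41. Il1b, which encodes interleukin-1β, was at 88.8 and 441 CPM (log2 ratio 2.26, 95% interval 1.75 to 2.92), in 17 of 104 and 91 of 174 cells. Ccl3, a chemokine for myeloid and T cells, was at 19.7 and 281 CPM (3.62). Ccl4, a related chemokine, had 0 UMIs in NCD members and 209 in HFHC members, at least 16.9-fold higher. C1q-low members had 0 and 65 UMIs, and at 1000 UMIs per cell it was found in 7.47% of HFHC members and 3.23% of HFHC C1q-low members, against 0 of the NCD ones and 11.1% of HFHC T cells. Ptgs2, the inducible cyclooxygenase, had 0 and 88 UMIs, at least 7.13-fold higher. Classical monocytes had a list median of 0.92 and Il1b at 2.26, and T cells a median of 1.08. In cells thinned to 1000 UMIs the list's median was -0.04, over the 5 genes that still passed the limit of 50 UMIs.

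Some mediators differed in size between the monocyte classes, with no test of that difference. Il1rn, the interleukin-1 receptor antagonist, was at 49.4 and 289 CPM in members (2.46, and 2.35 in C1q-low members) and at 154 and 155 CPM in classical monocytes (0.00). Ccl5, a chemokine for T cells, was at 1.62 in members, 2.33 in C1q-low members and -0.43 in classical monocytes. Both were higher in class II-high cells of the HFHC pool, with Il1rn at 627 against 87.1 CPM and Ccl5 at 517 against 41.3 CPM. Il1b did not follow class II in that way, at 567 against 504 CPM.

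Immediate-early genes, which respond within minutes to stimulation and to the isolation of cells, had positive medians in every class compared. The median was 0.88 in members, 0.77 in C1q-low members, 1.21 in classical monocytes, 1.18 in B cells and 1.46 in T cells. Fos was at 464 and 2131 CPM in members (2.19) and at 642 and 2750.3 CPM in classical monocytes (2.09). Egr1 (3.41), Fosb (3.18) and Atf3 (2.48), which encode factors of this response, were among the 10 genes with the highest ratio in members. The heat shock chaperones had medians of 0.35 in members and 0.39 in classical monocytes, with Hspa1a at 2.22 and 3.09. The part of cell isolation in the cytokine values was not tested.

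The remaining genes with the highest ratios were of different kinds. Cd5l, an apoptosis inhibitor that macrophages secrete, was at 46.1 and 542 CPM (3.46), C1qa at 46.1 and 449 CPM (3.19) and Slc40a1, the iron exporter ferroportin, at 62.5 and 487 CPM (2.89). In C1q-low members Cd5l was at 35.2 and 20.8 CPM and Slc40a1 at 30.2 and 54.0 CPM, and C1qa had 2 and 2 UMIs. All 6 Kupffer cell markers tested were past 2-fold in all members, where 7.94% of all genes were (median 3.04). In members with an Ace UMI the median was 1.53. It was -0.22 in members chosen on thinned counts, with 1 of 6 past 2-fold higher and 2 lower (5.99% and 2.81% of all genes were). A gene high in HFHC members enters such a count more readily, so it is a description and no support for a direction. Gnb2, a G protein subunit, Rgs1, a regulator of G protein signals, and Ptms, parathymosin, were at 2.84, 2.52 and 2.51, and Gnb2 and Ptms were at 2.70 and 2.82 in C1q-low members. Rgs1 had 3 and 123 UMIs in C1q-low members (3.68, 95% interval 2.50 to 6.38). All 3 were past 2-fold in classical monocytes as well, at 3.81, 2.63 and 1.68.

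At the other end, Ddit4, an inhibitor of mTOR signals induced by stress and glucocorticoids, was at 250.1 and 15.2 CPM (-3.99, 95% interval -4.85 to -3.30), and at -2.80 in C1q-low members. Scnn1a, a subunit of the epithelial sodium channel, was at 359 and 49.6 CPM (-2.85), and at -2.25 in C1q-low members. Classical monocytes held 13 and 21 UMIs of it. Tppp3, a protein that binds tubulin, was at 382 and 64.0 CPM (-2.57), at -2.04 in C1q-low members and at -0.07 in classical monocytes. Tsc22d3, a glucocorticoid-induced gene, was lower in both monocyte classes (-2.23 and -1.83). Serpina1e, a protease inhibitor made by hepatocytes, was at 362 and 39.2 CPM (-3.19), beside summed hepatocyte markers of 1175 and 924 CPM in members. The other genes of the 10 lowest were Nfe2, Tmc8, Irf2bpl, Idi1 and Cebpb, at -2.74, -2.48, -2.30, -2.16 and -2.12.

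Of 30 lysosomal genes tested, 28 had a positive ratio and 8 were 2-fold or more higher (7.94% of all genes were), with a median of 0.56. In C1q-low members 6 of 25 were (6.64% of all genes), 15 had a positive and 10 a negative ratio, and the median was 0.30. Classical monocytes had a median of 0.04. Such counts take in a gene high in HFHC members more readily. The counts and medians of this list are thus a description and no support for a direction. Lipa, the acid lipase that splits cholesteryl esters in lysosomes, was at 211 and 791 CPM (1.89, 95% interval 1.54 to 2.30), at 1.49 in C1q-low members and at 0.13 in classical monocytes. Npc2, which carries cholesterol out of the lysosome, was at 388 and 878 CPM (1.17, and 0.34 in classical monocytes), and the protease Ctsh at 217 and 498 CPM (1.18, and 0.08). Ctsd, another protease, had 4 and 422 UMIs (4.36, 3.31 to 6.56), and 2 and 70 in C1q-low members (3.29, 1.95 to 6.93). Ctsd entered the list through HFHC members only. The hexosaminidase gene Hexa was at 95.4 and 368 CPM (1.90), and Ctsd and Hexa were also both higher in classical monocytes (2.10 and 1.74). After thinning, a Ctsd UMI was found in 3.87% of NCD and 14.0% of HFHC T cells, and in 0.457% and 1.62% of B cells. The higher Ctsd was thus not particular to members.

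Lipid-handling genes had no common direction in C1q-low members. The list had a median of 0.29 in members and -0.09 in C1q-low members, with 2 genes higher and 2 lower by 2-fold among 14 (6.64% and 4.22% of all genes were). Apoe, an apolipoprotein that macrophages secrete, was at 2909 and 6233 CPM in members and at 2729 and 1775 CPM (-0.62) in C1q-low members. Gpnmb, a gene of lipid-associated macrophages, had 2 and 265 UMIs in members (4.43, 3.14 to 8.06) and 0 and 14 UMIs in C1q-low members. Cd36 was lower in both, at -0.98 and -1.40, and Fabp5, a fatty acid carrier, higher in both, at 1.96 and 2.10.

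Glycolysis and glucose uptake had a median of 0.07 over 18 genes (0.36 over 12 in C1q-low members), with 2 past 2-fold higher and 3 lower (7.94% and 5.51% of all genes were). In C1q-low members 2 were past 2-fold higher and 0 lower (6.64% and 4.22% of all genes were). Of the higher ones in all members, Tpi1, triosephosphate isomerase, was at 46.1 and 177 CPM (1.85) and Eno1, an enolase, at 92.1 and 270.2 CPM (1.51). The lower ones in all members were Slc2a6, a glucose transporter (-1.25), Slc16a3, a lactate exporter (-1.49), and Eno1b (-1.25), a near-identical copy of Eno1 whose reads the counting could split with it. Oxidative phosphorylation had a median of -0.07 over 44 genes, and of 0.25 in C1q-low members, where 24 of 37 had a positive ratio. Survival and apoptosis genes had a median of -0.11 over 16 genes, with Bcl2, a survival factor of these monocytes, at 75.7 and 36.0 CPM (log2 95% interval -1.83 to -0.28, and -0.44 in C1q-low members) and its pro-apoptotic relative Bcl2l11 at 29.6 and 85.5 CPM (1.39, and past 2-fold in C1q-low members). Interferon-stimulated genes had medians of -0.46 in members, -0.10 in C1q-low members, 0.17 in members chosen on thinned counts and -0.55 in classical monocytes. The other lists with a gene tested had medians between -0.66 for hepatocyte markers and 0.09 for dendritic cell markers, with glucocorticoid-responsive genes at -0.46 and Fc and complement receptors at -0.07. Chil1, the gene of Chi3l1, had 4 UMIs in 1 of 104 NCD members and 0 UMIs in the 174 HFHC members. The NCD cell with them had 1001 UMIs in all, of which 33 were of neutrophil markers, out of 104 such UMIs in all NCD members. The count of 0 allows a share of HFHC members with a UMI of up to 1.72% (3 cells of 174, over WT and Chi3l1-/- cells together).

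**Figure D5:**
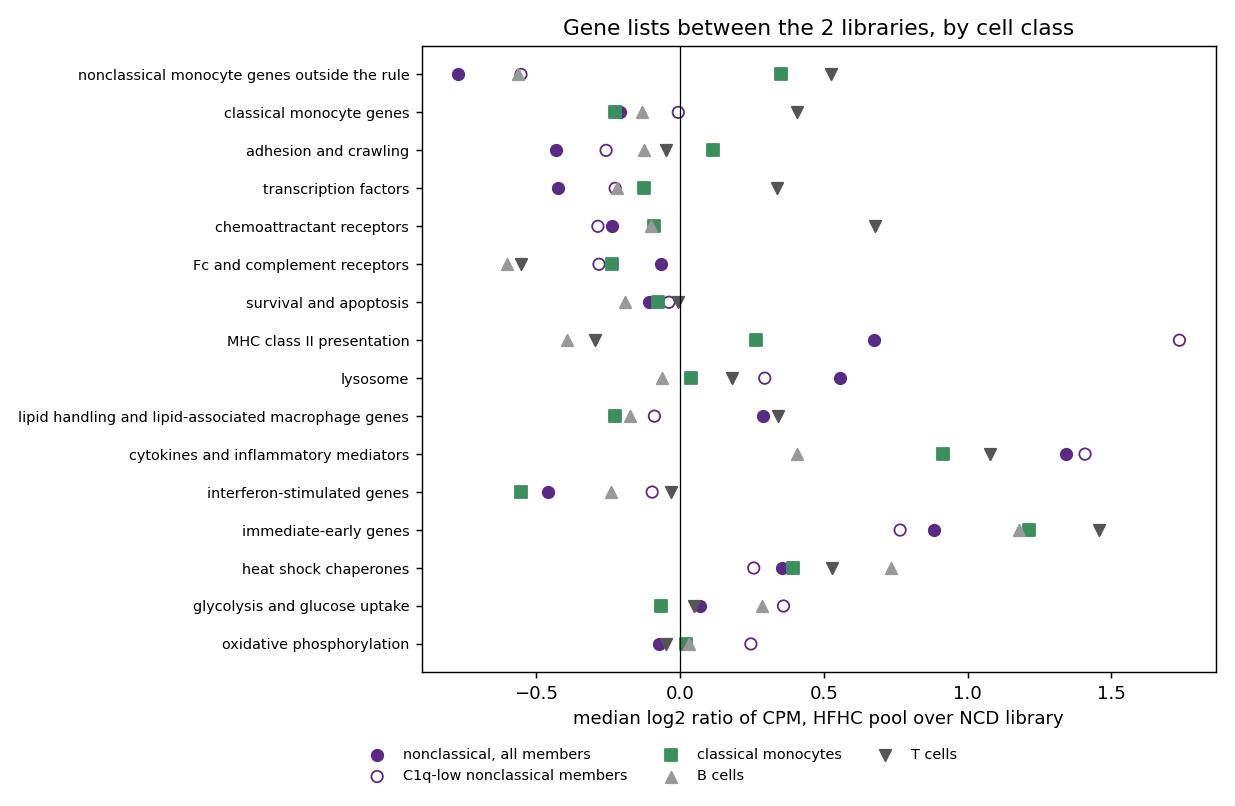
Median log2 ratio of CPM, HFHC over NCD cells, for 16 gene lists, over listed genes with at least 50 UMIs together, in all members, C1q-low members, classical monocytes, B cells and T cells. The MHC class II median is 1.74 in C1q-low members and 0.26 in classical monocytes, whereas the medians of immediate-early genes are above 0 in every class.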

How the data were processed

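The deposited tables of 2 whole-transcriptome libraries hold counts of UMIs per cell and gene, which the authors made with the BD Rhapsody WTA Analysis Pipeline 1.10.1 (per the processing notes of the submitters, which also name Seurat) on GRCm38 with GENCODE vM19. Recursive substitution error correction merged UMIs that differ by single-base errors. The library titled MCD was read as NCD because limits of over 200 and under 4000 genes and under 25% mitochondrial UMIs left 23312 of its cells, the number the study gives for NCD livers. A library of sample tags was not used here.

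For each class of cells the UMIs were added up and expressed as CPM. Ratios were log2 of CPM with 1 UMI added to each count, over genes with at least 50 UMIs together (called tested in the text). Intervals are exact Poisson or binomial 95% intervals. Shares of cells were compared after thinning each cell to 1000 UMIs without replacement (seed 42). Fold bounds use a floor of 3 UMIs over the group. Kupffer-like, B and T cells were taken by marker UMIs without clustering. Doublets were called with Scrublet and left in.

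Named genes were those of the rule and the lists, the 10 highest and 10 lowest ratios between libraries (at least 10 UMIs in each), the 20 highest and 10 lowest over classical monocytes by the library nearer to 0, and Chil1, and 1 classical gene is not reported here. The members and lists were chosen with earlier results of these data known. The C1q-low and class II limits, the set with an Ace UMI and the rule on thinned counts were chosen after the data were seen. Scripts were tested on simulated data and run in Python 3.11.15 with numpy 2.4.6, scipy 1.17.1, pandas 2.3.3, scanpy 1.11.5, scikit-image 0.26.0 and matplotlib 3.10.9.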

Additional observations from a re-analysis of the deposited data

Results flagged for a closer look

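The upper limit on genes left out 23 cells of the HFHC pool with over 4000 genes that met every other part of the rule, against 1 such cell of the NCD library. They belong to no comparison above. With them the share of members among kept cells was 0.964% in the HFHC pool and 0.448% in the NCD library. The median log2 ratio between libraries was then 0.35 for MHC class II genes and 0.77 for lipid-handling genes, against 0.68 and 0.29 without them.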

How the results depend on the processing

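Of 553 values computed under alternatives, 467 stayed close to their first value, 83 moved and 3 values that were past 2-fold changed sign. Values outside this set also changed sign, among them the median of Kupffer cell markers with the rule on thinned counts. Leaving out the cell with the most UMIs of a gene moved 21 values and left 99 close, so some gene values rest in part on 1 cell. Smaller list medians also crossed 0 under some alternative, for classical, interferon-stimulated, lipid-handling, glycolysis, oxidative phosphorylation and survival genes and for Fc and chemoattractant receptors. Directions of the lists for nonclassical genes (-0.89 to -0.29), MHC class II (0.35 to 1.74) and immediate-early genes held under every alternative.

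With at least 100 UMIs per gene, 201 genes were 2-fold or more higher and 131 lower in HFHC members, 60 higher and 74 lower than in classical monocytes of the NCD library and 164 higher than in those of the HFHC pool, and the lipid median was 1.04. With at least 20 UMIs these counts were 702, 524, 350, 340 and 539, with 352 lower in the HFHC pool and a cytokine median of 2.26. Cells thinned to 1000 UMIs gave 63 higher and 67 lower between libraries, 47 and 63 over classical monocytes of the NCD library, 54 and 63 over those of the HFHC pool, and a cytokine median of -0.042. Without an upper limit on genes, 431 genes were higher than in classical monocytes of the HFHC pool.

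At least 2 different markers gave 167 lower genes, an HFHC share of 0.642%, 43.0% of monocytes, and thinned shares of 0.430% and 0.396%. At least 3 marker UMIs gave 0.683%, 44.5%, 0.410% and 0.372%. Cells with no Clec4f or Vsig4 UMI were 0.360% and 0.744%. Thinned shares were 0.915% and 1.37% at 2000 UMIs and 0.243% and 0.183% at 500 UMIs.

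Of the sets chosen after the data were seen, members with an Ace UMI gave 208 higher and 149 lower genes, 182 higher than in classical monocytes of the HFHC pool, HFHC shares of 0.606% (kept cells) and 41.6% (monocytes), and a cytokine median of 1.98. C1q-low members gave 162, 103 and 166 genes, HFHC shares of 0.474% and 35.8%, an NCD share of 0.343%, an MHC class II median of 1.74, and log2 ratios of -1.28 for C1qa and -0.82 for Cd5l. The rule on thinned counts gave 128 higher and 60 lower genes between libraries, 145 higher than in classical monocytes of the HFHC pool, and medians of 1.43 for MHC class II, 0.48 for classical and 0.17 for interferon genes. Kupffer cell markers then had a median of -0.22, against 3.04 in all members. The causes were not tested, apart from the fewer genes that pass a higher limit or thinned counts.

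No paired analysis was possible because each diet has 1 library. With 104 and 174 cells, genes under 50 UMIs and differences in shares within the intervals were beyond the depth. No value can be given for the spread between animals and no library was left out.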
